A study of Mus musculus with 6 samples.

Results

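miR-128 is a microRNA (miRNA), a short RNA that guides Argonaute proteins to complementary sites in messenger RNAs. The mouse genome carries 2 hairpins for it, which give 3 mature RNAs: mmu-miR-128-3p, cut from both hairpins with the same sequence, and the opposite arms mmu-miR-128-1-5p and mmu-miR-128-2-5p, which differ and so show which hairpin they came from. These 3 entries of 1189 in the small RNA profile were chosen by name after miR-128-3p had been seen to hold the largest share of reads, so its first place is a description and not a test. The profile came from the prefrontal cortex of 18-month-old wild type male C57BL/6 mice (17 in the sample names). There were 3 mice with postoperative neurocognitive disorder (PND) and 3 control (CON) mice, each with a library of its own. PND mice breathed 1.5% isoflurane for 30 min and then underwent an exploratory laparotomy of 30 min under isoflurane. Lidocaine cream and povidone iodine were put on the wound afterwards. CON mice received neither this anaesthesia nor an operation. Anaesthesia, operation and wound care therefore cannot be told apart in this design, and mice of both groups had gone through the same behavioural tests. According to the paper, the mice were deeply anaesthetised with isoflurane for tissue harvest. This was 30 min after the last test, a Barnes maze, and days after the operation of the PND mice.

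A miRNA hairpin is trimmed in the nucleus by Drosha and in the cytoplasm by Dicer, and 1 strand of the resulting duplex is usually kept in Argonaute while the other is degraded. miR-128 is known as a neuron-enriched miRNA of the brain whose guide strand is the 3p arm and which restrains neuronal excitability. Target choice depends mostly on the seed, bases 2 to 8 of the mature RNA.

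All 3 members were found in the RefSeq miRNA table (GRCm38.p6). The mature sequences are shown because they carry the arm and hairpin comparisons, 5′ to 3′, with the seed in capitals.
mmu-miR-128-3p: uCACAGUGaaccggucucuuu
mmu-miR-128-1-5p: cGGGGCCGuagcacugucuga
mmu-miR-128-2-5p: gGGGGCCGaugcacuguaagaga
The 5p arms shared the seed GGGGCCG, which was also their longest common run, and matched at 16 of 23 aligned positions (69.6%). No other of the 1679 mature names in the table had that seed. The seed of miR-128-3p, CACAGUG, stood at bases 2 to 8 in no other name, but at bases 3 to 9, shifted by 1 base, in the pair miR-27a-3p and miR-27b-3p, whose shared stretch is in capitals.
mmu-miR-27a-3p: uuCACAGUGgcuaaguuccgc
mmu-miR-27b-3p: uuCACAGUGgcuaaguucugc
The same 7 letters, searched on the RNA strand as written, occurred anywhere in 10 of the 1679 names (0.596%).

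The hairpins are shown because a read of miR-128-3p cannot be assigned to 1 of them, with both mature arms in capitals.
Mir128-1: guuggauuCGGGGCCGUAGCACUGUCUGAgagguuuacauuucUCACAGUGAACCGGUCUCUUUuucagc
Mir128-2: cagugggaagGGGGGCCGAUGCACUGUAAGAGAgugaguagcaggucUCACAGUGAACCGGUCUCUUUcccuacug
On GRCm38, Mir128-1 (70 bases) is at chr1:128202361-128202430 on the plus strand, within an intron of R3hdm1, and Mir128-2 (76 bases) is at chr9:112118636-112118711 on the minus strand, within an intron of Arpp21, which encodes a cAMP-regulated phosphoprotein of neurons. Both lie on the strand of the host gene and overlapped no exon of the 2 and 9 host transcripts that span them in GENCODE M21. The hairpins matched at 55 of 77 aligned positions (71.4%), had the same loop length of 14 bases between the arms, and had predicted folding energies of -29.3 and -37.3 kcal/mol. Among 1005 mouse hairpins the 3p sequence was found in these 2, and each 5p sequence in 1.

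The deposited values are CPM, reads per 1000000 miRNA reads of the library. From these, 15275467, 14849461 and 16093467 reads were recovered for the CON mice and 19471226, 17600766 and 17712218 for the PND mice, so that every PND library was deeper than every CON library. Of the miRNAs listed as known for single cell types, 0 were without reads in all libraries. The 13 neuronal entries other than miR-128 summed to between 135503 and 180444 CPM, 3 oligodendrocyte entries to 1384 to 1765 CPM, 5 leukocyte and microglia entries to 1300 to 1504 CPM, 4 endothelial and mural entries to 19026 to 24041 CPM, 3 erythroid entries to 31.9 to 99.5 CPM and 2 choroid plexus entries to 585 to 926 CPM. CON mouse 1 stood apart in 8 epithelial or olfactory entries (1646 CPM, against 67.0 to 198 CPM in the other 5), and CON mouse 2 had the highest share of miR-128-3p. Values without CON mouse 2 are given below where they moved by more than 1.5 times.

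miR-128-3p, the guide strand, was the most abundant entry in the mean over the 6 mice. Its level was 232454, 189765 and 176370 CPM in PND mice 1, 2 and 3, and 227296, 292349 and 215628 CPM in CON mice 1, 2 and 3. CON mouse 2 was the highest and PND mouse 3 the lowest, and PND mouse 1 lay above both other CON mice, so the groups overlapped. As a share of reads this was 23.2%, 19.0% and 17.6% for PND, against 22.7%, 29.2% and 21.6% for CON. The 95% Wilson intervals of these shares were no wider than 0.0231 percentage points on either side, so counting error was far below the spread between mice. All intervals here cover counting error only, since reads without molecular identifiers are not independent molecules and differences in adapter ligation between miRNAs are not part of them. In this bulk tissue, fewer cells of a type and less RNA per cell cannot be told apart.

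**Figure D1:**
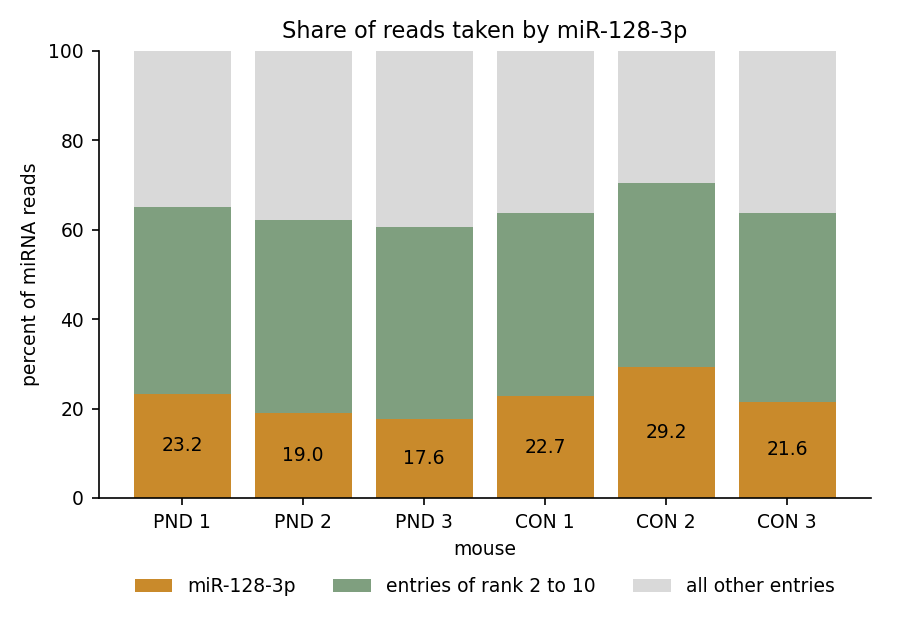
Percent of miRNA reads per mouse (y axis, linear from 0) on miR-128-3p, on the entries ranked 2 to 10 by mean CPM and on all other entries, as stacked bars for 3 PND and 3 CON mice. The miR-128-3p segment ranges from 17.6% in PND mouse 3 to 29.2% in CON mouse 2, whereas the ranks 2 to 10 stay between 41.0% and 43.2%.

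Compared with the CON group, the share of miR-128-3p in the PND group differed by -4.56 percentage points (19.95% ± 2.93 against 24.5% ± 4.13, SD, n = 3 mice each). This did not pass a two-sided exact permutation test over the 6 mice (p = 0.3; the smallest p that 3 against 3 can give is 0.1). Without CON mouse 2 the difference was -2.19 points. On the scale of log2(CPM + 1), limma gave a difference of -0.29 (SE 0.14, unadjusted p = 0.077, Benjamini-Hochberg adjusted p = 0.77), from 199530 ± 29289 CPM in PND and 245091 ± 41340 CPM in CON (SD). Without CON mouse 2 the log2 difference was -0.16. No member had an adjusted p under 0.05 by limma, by edgeR's quasi-likelihood or exact test, or by DESeq2. At an unadjusted p under 0.05 the members called were 0 of 3 by limma as specified and by edgeR's exact test (background over all entries 3.45%). They were 2 of 3 (miR-128-3p and miR-128-2-5p) by edgeR's quasi-likelihood test (50 of 1189 entries, 4.21%) and by DESeq2 (28 of 1184, 2.36%). In limma, miR-128-2-5p alone was called with TMM factors (unadjusted p = 0.048; background 4.37%), with DESeq2 size factors (unadjusted p = 0.042; 4.46%) and without trend (unadjusted p = 0.033; 4.79%). The same arm was also under this limit when PND mouse 1 was left out (background 7.4%). The background over all 1189 entries in limma as specified was 61 entries with an unadjusted p under 0.05 (5.13%), of which 48 were higher in PND (4.04%) and 13 lower (1.09%). In addition, 1 entry passed this limit with more than 2-fold change (0.0841%), and 5 had an adjusted p under 0.05 (0.421%); no member was among them.

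miR-128-1-5p, the opposite strand of the first hairpin, ranked 281 by mean CPM. It had 501, 443 and 485 reads in PND mice 1, 2 and 3 and 336, 420 and 335 reads in CON mice 1, 2 and 3, or 25.7, 25.2 and 27.4 CPM against 22.0, 28.3 and 20.8 CPM. The highest and the lowest values were both in CON mice. The log2 difference was 0.14 (SE 0.16, adjusted p = 0.77, limma), with 26.1 ± 1.15 CPM in PND and 23.7 ± 4.01 CPM in CON (SD, n = 3 mice each). Without CON mouse 2 the difference was 0.27 (unadjusted p = 0.051 in limma) and without CON mouse 3 it was 0.061. It was 0.063 per read other than miR-128-3p, 0.027 with TMM factors, and changed sign with other scalings, being -0.0021 with DESeq2 size factors and -0.034 in DESeq2.

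miR-128-2-5p, the opposite strand of the second hairpin, ranked 376. It had 160, 123 and 109 reads in PND mice 1, 2 and 3 and 137, 150 and 135 reads in CON mice 1, 2 and 3. Its level was 8.22, 6.99 and 6.15 CPM for PND, against 8.97, 10.1 and 8.39 CPM for CON, so all 3 PND values lay below all 3 CON values. The nearest mice, PND mouse 1 and CON mouse 3, rested on 160 and 135 reads in libraries of different depth, so the gap between them was within counting error. Rescaled to the reads other than miR-128-3p (to the same total as CPM), these mice had 10.71 and 10.69, so the groups then overlapped. The log2(CPM + 1) difference was -0.33 (SE 0.17, unadjusted p = 0.085, adjusted p = 0.77, limma), from 7.12 ± 1.04 CPM in PND and 9.15 ± 0.871 CPM in CON (SD, n = 3 mice each). Over all 1189 entries, 24 had groups that did not overlap with PND lower (2.02%) and 94 with PND higher (7.91%).

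**Figure D2:**
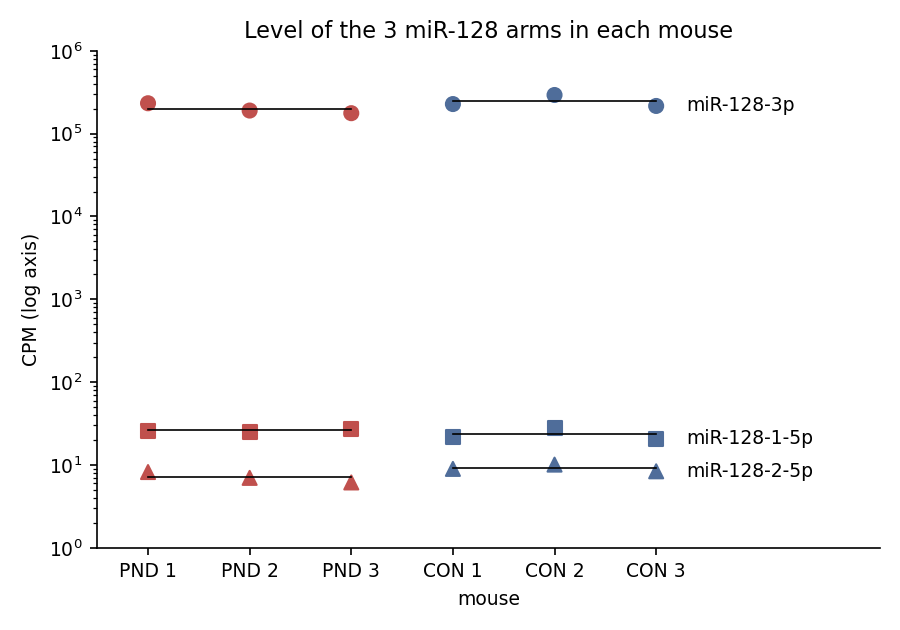
CPM (log axis) of the 3 miR-128 arms in each of 3 PND mice (red) and 3 CON mice (blue), with horizontal lines at the group means. miR-128-3p lies between 176370 and 292349 CPM, miR-128-1-5p between 20.8 and 28.3 CPM and miR-128-2-5p between 6.15 and 10.1 CPM, and of the 3 arms miR-128-2-5p has groups that do not overlap in the CPM as deposited, although they overlap once rescaled to the other reads.

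The 5p arms together made up 0.0131% to 0.0190% of all miR-128 reads of a mouse. In PND mice 1, 2 and 3, 6847, 5901 and 5259 reads of miR-128-3p were counted per read of the summed 5p arms. In CON mice 1, 2 and 3 the ratio was 7341, 7616 and 7383. All 3 PND mice lay below all 3 CON mice, and the difference in the log2 ratio was -0.32 (12.54 ± 0.19 in PND, 12.86 ± 0.029 in CON, SD, n = 3 each; exact permutation p = 0.1, the smallest this design can give). A ratio between arms does not depend on the total of the library. Leaving out each mouse in turn gave differences between -0.42 and -0.23. The same measure was computed for 163 miRNAs with at least 10 reads of each arm in every library, numbered minor arms being summed first. The groups did not overlap with PND lower in 8 of these (4.91%), which were miR-128-3p, let-7i-5p, miR-99b-5p, miR-124-3p, miR-151-3p, miR-872-5p, miR-671-3p and miR-1298-5p (the last 7 named after their values were seen), and with PND higher in 5 (3.07%).

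The lower ratio was seen with the arm of the first hairpin and not with that of the second. Per read of miR-128-1-5p there were 9034, 7540 and 6441 reads of miR-128-3p in PND mice 1, 2 and 3, and 10334, 10336 and 10359 in CON mice 1, 2 and 3. The 3 CON ratios lay far closer together than their counting intervals are wide, 9286 to 11499 at 95% for CON mouse 1. The intervals of PND mouse 2 (6869 to 8275) and PND mouse 3 (5893 to 7040) lay below those of all CON mice, whereas that of PND mouse 1 (8277 to 9861) overlapped them. The difference in the log2 ratio was -0.44 (exact permutation p = 0.1, n = 3 each). Per read of miR-128-2-5p the ratios were 28289, 27155 and 28660 for PND, against 25343, 28941 and 25705 for CON. These groups overlapped, with a log2 difference of 0.07, PND being higher (exact permutation p = 0.4, n = 3 each).

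**Figure D3:**
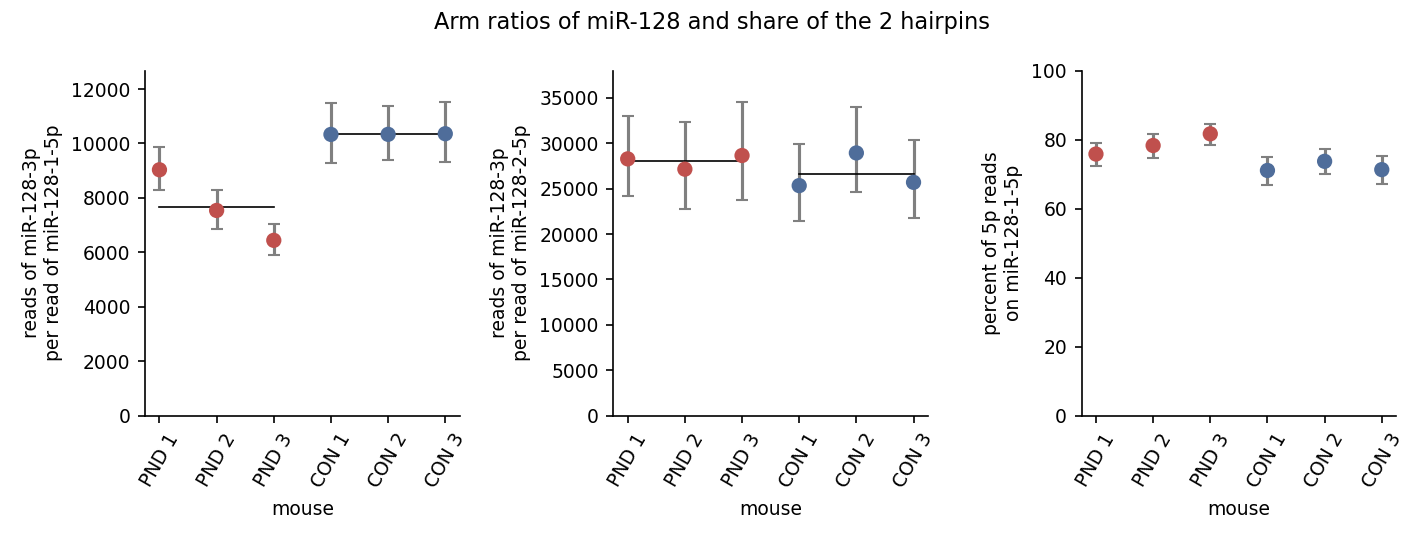
Reads of miR-128-3p per read of miR-128-1-5p (left) and of miR-128-2-5p (middle), and percent of 5p reads on miR-128-1-5p (right), in each PND (red) and CON (blue) mouse, with 95% counting intervals as grey bars and group means as lines in the left and middle panels. On the left all 3 PND mice (6441 to 9034) are below the CON mice (10334 to 10359), in the middle the groups overlap, and on the right PND mice (75.8% to 81.6%) are above CON mice (71.0% to 73.7%).

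Since the 5p arms differ in sequence, their reads divide between the hairpins. miR-128-1-5p held 75.8%, 78.3% and 81.6% of the 5p reads in PND mice 1, 2 and 3 and 71.0%, 73.7% and 71.3% in CON mice 1, 2 and 3. The groups did not overlap, although the 95% Wilson intervals of single mice did (72.4% to 78.9% in PND mouse 1, 69.9% to 77.1% in CON mouse 2). The PND group was 6.57 percentage points higher (78.6% ± 2.94 against 72.0% ± 1.46, SD, n = 3 each; exact permutation p = 0.1), and between 5.03 and 7.96 points higher after leaving out each mouse in turn. This share and the arm ratios use the same reads and are not separate evidence. How much of miR-128-3p each hairpin gave was not measured, and reads of the 5p arms need not divide as those of the 3p arm do.

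Other miRNAs built in the same way, with 1 shared arm and 2 numbered opposite arms, were set beside miR-128. There were 12 such miRNAs with the shared arm at a mean of 1000 CPM or more, and 9 of them had at least 10 reads of each numbered arm in every library. Among these 9, groups did not overlap in the share of the leading hairpin for 1 (11.1%), which was miR-128 itself. Full separation of 3 against 3 mice has an exact permutation p of 0.1, so 1 of 9 does not mark it as particular to miR-128. The difference was larger for let-7f, whose leading arm let-7f-2-3p was 12.0 points higher in PND, but its share ranged from 37.6% to 68.3% and the groups overlapped (exact permutation p = 0.2, n = 3 each). The nearest in size was miR-125b-2-3p, 4.88 points higher in PND with overlapping groups (exact permutation p = 0.3, n = 3 each). The share of let-7a-1-3p stayed between 99.4% and 99.7%, and that of let-7c-2-3p between 87.4% and 89.2%. The differences between these miRNAs were not tested.

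The imbalance between arms was large among the 163 miRNAs with both arms counted, a set that leaves out miRNAs whose minor arm had too few reads. Over all 6 mice, 6681 reads of miR-128-3p were counted per read of its 5p arms, in place 4 of the 163 miRNAs, behind let-7g-5p (31152), miR-218-5p (16328) and miR-100-5p (7440). The median of the 163 was 15.3, and the summed minor arms of miR-218-5p had only 10 to 27 reads a library. Of the other miRNAs with a shared arm, miR-26a-5p reached 3510, let-7f-5p 1397, miR-181b-5p 639, let-7c-5p 268, miR-7a-5p 196, miR-30c-5p 101, let-7a-5p 57.8, miR-125b-5p 54.3, miR-24-3p 10.4 and miR-129-5p 9.88. miR-9-5p, a miRNA of neural progenitors and neurons and the next most abundant entry, is one whose opposite arm, miR-9-3p, was also plentiful at 4181 to 5425 CPM. The arms may differ in how well they are ligated and sequenced, which was not tested.

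**Figure D4:**
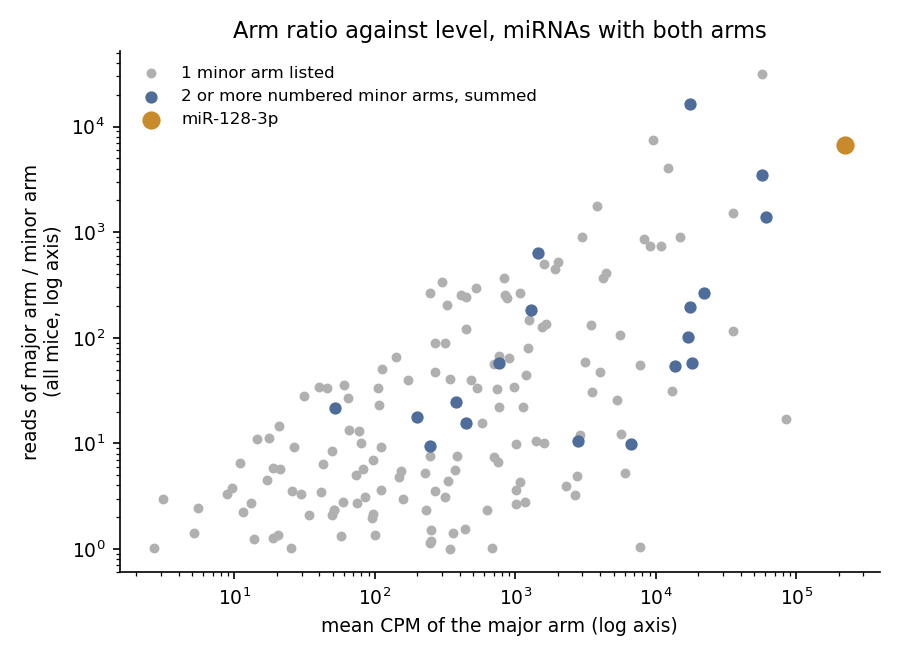
Reads of the more abundant arm per read of the other arm over all mice (y, log axis) against the mean CPM of the more abundant arm (x, log axis) for 163 miRNAs. miR-128-3p (orange) is farthest right, with a ratio of 6681 that 3 miRNAs exceed.

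Among the entries of the profile, miR-128-3p also moved the most reads. Its share ranged over 11.6 percentage points, whereas the next largest ranges were 2.21 points for miR-9-5p (7.41% to 9.61%), 1.19 for miR-7a-5p (0.977% to 2.16%), 0.982 for let-7g-5p (5.12% to 6.10%) and 0.975 for miR-218-5p (1.20% to 2.18%). miR-9-5p, miR-7a-5p and miR-218-5p were each lowest in CON mouse 2 and highest in PND mouse 3, the reverse of miR-128-3p. These CPM share a total with miR-128-3p, so part of this follows from the arithmetic. Rescaled to the reads other than miR-128-3p, miR-7a-5p and miR-218-5p kept these extremes. miR-9-5p was then lowest in PND mouse 1 (98923, against 104643 in CON mouse 2). In relative terms the spread of miR-128-3p was above the median but not the largest: the SD of its log2 CPM over the 6 mice was 0.25, and 56 of the 193 entries averaging 100 CPM or more had a larger one (median 0.16). Among the first 10 entries by mean CPM its relative spread was the widest. miR-128-3p had 3.06, 2.17 and 1.83 times the reads of miR-9-5p in PND mice 1, 2 and 3, and 2.73, 3.95 and 2.53 times in CON mice 1, 2 and 3. miR-9-5p came next in every mouse. The other entries of the first 10 by mean CPM were let-7f-5p, miR-26a-5p, let-7g-5p, miR-99a-5p, let-7i-5p, miR-127-3p, let-7c-5p and let-7a-5p. The first 10 held 60.5% to 70.3% of the reads.

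The pair with the shifted seed was far less abundant than miR-128-3p. miR-27a-3p had 1263, 1247 and 1265 CPM in PND mice 1, 2 and 3 and 1251, 1232 and 1219 CPM in CON mice 1, 2 and 3, with overlapping groups and a log2 difference of 0.03 (limma). miR-27b-3p had 10329, 12028 and 12719 CPM in PND mice 1, 2 and 3 and 9947, 9392 and 10478 CPM in CON mice 1, 2 and 3. Its log2 difference was 0.23 (unadjusted p = 0.057, adjusted p = 0.77, limma), and PND mouse 1 lay below CON mouse 3. miR-27a-3p and miR-27b-3p are made in many tissues, endothelium included.

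The likeness of another entry to miR-128-3p was measured as the SD of the log2 ratio of their values over the 6 libraries, where a smaller SD is a closer pattern. Of the 192 other entries averaging 100 CPM or more, the closest were miR-674-3p (SD 0.11), miR-744-5p (0.13), miR-212-5p (0.17), miR-370-3p (0.17) and miR-770-3p (0.18), against a median of 0.36. miR-674-3p had 247, 217 and 191 CPM in PND mice 1, 2 and 3 and 229, 268 and 224 CPM in CON mice 1, 2 and 3. As for miR-128-3p, CON mouse 2 was highest and PND mouse 3 lowest. miR-27a-3p was in place 35 (0.26), miR-9-5p in place 103 (0.39) and miR-27b-3p in place 109 (0.42). Of the 5p arms, miR-128-2-5p followed miR-128-3p with an SD of 0.082, below the 0.12 that counting error of its reads alone would give. miR-128-1-5p had an SD of 0.29, above the 0.071 of its counting error, and the 5p arms differed from each other with an SD of 0.33. These values are a description over 6 libraries, whose CPM share 1 total each.

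A miRNA with such a share of reads lowers the CPM of all others by arithmetic. If the reads of miR-128-3p are left out of the total, the value of every other entry rises 1.30-, 1.23- and 1.21-fold in PND mice 1, 2 and 3, and 1.29-, 1.41- and 1.27-fold in CON mice 1, 2 and 3. On the log2 scale this was 0.32 ± 0.053 in PND and 0.41 ± 0.080 in CON (SD, n = 3 each), a difference of 0.085 (0.039 without CON mouse 2) that did not pass the exact permutation test (p = 0.3). The largest gap between single mice was 0.22, between CON mouse 2 and PND mouse 3. Without a pseudocount, the CPM as deposited thus place every other entry with reads in all mice 0.085 higher in PND against CON. This is on the log2 scale and relative to a total without miR-128-3p. On the log2(CPM + 1) scale of limma this shift ran from -0.15 to 0.13 between entries, larger for some and reversed for others.

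The sign of small differences depends on which total is used. Among the 360 other entries averaging 10 CPM or more, 286 (79.4%) had a fold change above 0 in PND as deposited. Rescaled to the reads other than miR-128-3p, 210 (58.3%) did. The 76 entries that changed sign are those whose difference was smaller than the shift, so their number follows from the arithmetic. The median log2 difference of these entries was 0.14 as deposited and 0.055 after rescaling. Without CON mouse 2 the shares above 0 were 68.9% as deposited and 51.9% after rescaling. Scalings that do not use the total gave 51.7% (TMM factors) and 48.9% (DESeq2 size factors). TMM factors, which estimate how far a few abundant entries distort the total, were 0.999, 1.06 and 1.07 for PND mice 1, 2 and 3 and 1.03, 0.860 and 0.992 for CON mice 1, 2 and 3, so CON mouse 2 was the lowest. With TMM factors the log2 difference of miR-128-3p itself was -0.42, and with DESeq2 size factors -0.45, against -0.29 as deposited.

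**Figure D5:**
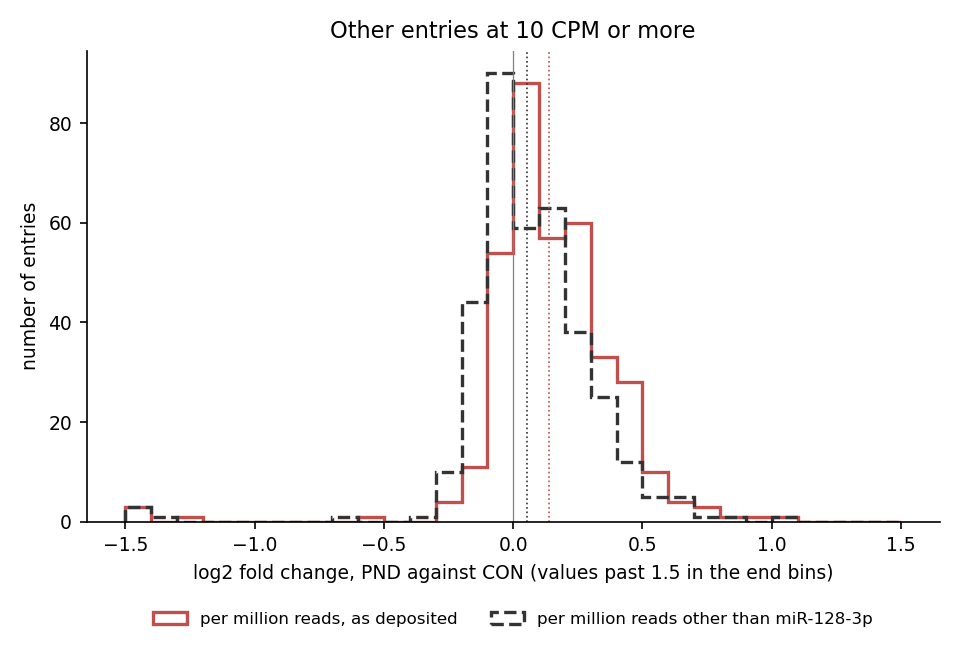
Number of entries (y) by log2 fold change, PND against CON (x, bins of 0.1, values past 1.5 in the end bins), for the 360 entries other than miR-128-3p averaging 10 CPM or more. The solid red outline is the CPM as deposited (median 0.14, dotted red) and the dashed black outline is the values rescaled to reads other than miR-128-3p (median 0.055, dotted black), which lies further left.

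The number of entries past the test limit moved less. After rescaling, 51 of 1188 entries had an unadjusted p under 0.05 in limma (4.29%), 37 higher in PND (3.11%) and 14 lower (1.18%), and 49 of the 51 were also under 0.05 as deposited. Of the 61 entries as deposited, 12 were no longer under 0.05 after rescaling. Fitted only to entries averaging 10 CPM or more, 5 were under 0.05 as deposited and 5 after rescaling. Every PND library was deeper than every CON library, and 1030 to 1033 entries had a read in PND mice, against 965 to 1006 in CON mice. The bearing of depth on low entries was not tested and cannot be told apart from the group here. Of all entries under 0.05, 78.7% were higher in PND as deposited, 72.5% after rescaling, 65.4% with TMM factors, 60.4% with DESeq2 size factors and 57.5% without CON mouse 2. The share was 56.0% and 58.5% in edgeR's quasi-likelihood and exact tests, 71.4% in DESeq2 and 80.4% with a replicate block. Without PND mouse 1, 2 or 3, 73, 19 and 40 were higher and 15, 12 and 12 lower. Without CON mouse 1 or 3, 75 and 53 were higher and 16 and 25 lower. Groups that did not overlap were higher in PND for 74 of 1188 entries (6.23%) and lower for 32 (2.69%) after rescaling. miR-127-3p, an imprinted miRNA of the brain, had 36272, 36738 and 39139 CPM in PND mice 1, 2 and 3 and 33455, 30058 and 36009 CPM in CON mice 1, 2 and 3. These groups did not overlap as deposited, but did so after rescaling, where the log2 difference was 0.09 instead of 0.18. miR-27b-3p went the other way, overlapping as deposited and lying higher in all 3 PND mice after rescaling, with a log2 difference of 0.14.

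Of the 13 other entries of the neuronal list, 11 had a log2 difference above 0 as deposited, 10 after rescaling and 8 with TMM factors, beside 79.4%, 58.3% and 51.7% of the 360 entries at 10 CPM or more. The median was 0.18 as deposited and 0.09 after rescaling, beside 0.14 and 0.055 for those 360 entries. No entry of the list had an unadjusted p under 0.05 in limma (background over all entries 5.13% as specified) or in edgeR's quasi-likelihood (4.21%) and exact tests (3.45%). In DESeq2, 1 of 13 did (unadjusted p = 0.049; background 2.36%). miR-124-3p, the abundant miRNA of mature neurons, had 5240, 5784 and 6178 CPM in PND mice 1, 2 and 3 and 5924, 4018 and 4758 CPM in CON mice 1, 2 and 3. CON mouse 2 was the lowest of all mice for 10 of the 13 entries as deposited and for 7 of 13 after rescaling, while 67.8% and 50.0% of the 360 entries were lowest there, so the counts for the list are near those of entries in general. miR-153-3p had 40.7 CPM in CON mouse 2 and 178 to 329 CPM in the other mice.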

How the data were processed

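The authors deposited 1 CPM value per miRNA and library (named TPM in the paper). According to the paper's methods, reads were filtered with fastx, kept at small RNA lengths, aligned with Bowtie, named by miRBase, scaled by TMM and divided by the total. The deposited CPM of a library summed to 999998 (PND mouse 3) to 999999 (CON mouse 1). TMM factors, here 0.860 to 1.07, therefore do not show in the deposited values. The submitters' processing notes name Bowtie 0.12.2 and the builds mm8 and mm9. The rule for reads matching several places, which bears on both hairpins, is not given in the sources used here, and the labels and the paper name different library kits. All values (100%) divided into whole reads in each library (tolerance 0.1). The recovered reads gave depth, intervals, arm ratios and the floor of 3 reads (0.154 to 0.202 CPM).

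The main test was limma 3.58.1 with trend in R 4.3.3, fitted without a filter to the 1189 entries as log2(CPM + 1), PND against CON, with Benjamini-Hochberg adjustment. The log2(CPM + 1) scale understates the fold changes of low entries. Single values were compared by two-sided exact permutation tests over the 6 mice, going through every assignment of the group labels. Wilson intervals came from scipy 1.17.1. Rescaled values divide by the reads other than miR-128-3p. The labels describe each library as a separate mouse. The alternatives were other pseudocounts, filters and scalings, edgeR 4.0.16 and DESeq2 1.42.0 on the recovered reads, a replicate block, and leaving out each mouse. The fits were tested on simulated data. Folding energies came from RNAfold 2.7.2. Sequences and positions are those of RefSeq and GENCODE on GRCm38, which is not the build of the notes, and the deposited values carry no coordinates.

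The members and lists were chosen with earlier results of these data known. Named were the 3 members, miR-27a-3p and miR-27b-3p, the first 10 entries by mean CPM, the 5 with the largest range of read share, the 5 most like miR-128-3p, miRNAs with a shared arm and numbered opposite arms, the neuronal list and the summed lists of cell type markers.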

Additional observations from a re-analysis of the deposited data

How the results depend on the processing

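Of 144 recomputed values, 110 kept their direction and their side of the limit (counts stayed within 1.5 times), though their size could differ, 29 counts or shares moved and 5 values changed direction. The limit was a p under 0.05, for the members together with more than 2-fold change. The exact permutation tests cannot reach it with these mice, and no alternative brought a member near 2-fold. For these values the label therefore speaks only for the direction, and a move across an unadjusted p of 0.05 does not change it. The difference of miR-128-3p was below 0 in all 16 alternatives (-0.47 to -0.16; adjusted p 0.58 to 1) and that of miR-128-2-5p in all 15 (-0.52 to -0.24; adjusted p 0.57 to 1), with an unadjusted p under 0.05 in 2 and 6 of them. miR-128-2-5p averages under 10 CPM, so that filter gave no value for it. That of miR-128-1-5p turned below 0 with DESeq2 size factors (-0.0021), edgeR's quasi-likelihood (-0.0014) and exact test (-0.0010) and DESeq2 (-0.034; adjusted p 0.70 to 1 over its alternatives), and the log2 ratio of miR-128-3p to miR-128-2-5p alone differed by 0.075, PND being higher. The cause of these turns was not tested.

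The 61 entries with an unadjusted p under 0.05 became 5 at 10 CPM or more, 28 in DESeq2 and 31 to 91 without single mice (40 without CON mouse 2, 31 without PND mouse 2). The 1 entry that was also past 2-fold became 22 with a pseudocount of 0.1, 0 at 10 CPM or more, 0 without trend, 32 and 31 in edgeR's quasi-likelihood and exact tests, 11 in DESeq2 and 0 to 1 without single mice. After rescaling, the 51 entries became 5 at 10 CPM or more and 31 to 83 without single mice (81 without PND mouse 1, 31 without PND mouse 2, 83 without CON mouse 1), and the 1 entry past 2-fold became 27 with a pseudocount of 0.1, 0 at 10 CPM or more and 0 to 5 without single mice. The share of other entries above 0 (79.4%) was 51.7% with TMM factors, 48.9% with DESeq2 size factors, 50.8% in both edgeR tests, 48.3% in DESeq2 and 68.9% to 85.6% without single mice. After rescaling it was 51.9% to 68.9% without single mice. These shares were added after seeing the data. The share of miR-128-3p differed by -6.20 to -2.19 points.

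Deviations from the group means correlated at -0.13, 0.12 and 0.51 between same-numbered mice, over 361 entries. Between differently numbered mice the correlations ran from -0.55 to 0.50, so the numbers were not taken to pair the mice. With a replicate block, 2 entries passed both limits as deposited and 2 after rescaling, and miR-128-3p had an unadjusted p of 0.060 (adjusted p 0.75, limma). Within replicate numbers the exact permutation p was 0.5 for the share of miR-128-3p and 0.25, the smallest possible there, for the arm ratio and the hairpin share. The 5p arms rested on 109 to 501 reads a mouse, and 3 against 3 mice cannot give an exact p below 0.1.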
